A study of Mus musculus with 2 samples.

Results

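The mitochondrial ribosomal protein genes were examined in single nuclei of the mouse thalamus after cortical ablation injury. Members were all genes whose symbol begins with Mrpl or Mrps followed by a number and at most 1 letter, with the gene identifiers of the tables mapped to GENCODE M21 symbols on GRCm38. This gave 78 members among 32285 gene rows, present in both tables and all protein-coding. Of these, 49 are named for the large subunit (Mrpl) and 29 for the small subunit (Mrps). Below, large-subunit and small-subunit genes are told apart by this name only, which need not match the place of the protein. The sham and injury groups were each 1 droplet-based 3′ library of sorted nuclei. Each library combined 4 mice, all C57BL/6J females of 3 months, whose thalamus on the operated side was taken 21 days after surgery. Sham mice received a burr hole without ablation and injury mice had sensory and motor cortex removed, and the labels name no transgene or drug. Since nothing separates the mice of a pool, each group had 1 replicate, library and group cannot be told apart, no test between groups was possible, and every interval below is at 95% and covers counting error only.

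The mitochondrial ribosome is made in mitochondria from RNAs of the mitochondrial genome and from proteins that are all encoded in the nucleus, made in the cytosol and imported. It translates only the few membrane subunits of the respiratory chain that the mitochondrial genome encodes, so respiration in neurons depends on it. Its small subunit reads the messenger RNA, and its large subunit forms the peptide bond and is anchored to the inner membrane. In nuclei, the RNA of these genes includes transcripts not yet spliced or exported, so the values are levels of nuclear transcripts and not of ribosomes.

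There were 16390 barcodes in the sham table and 21828 in the injury table, with totals of 137850696 and 180106314 unique molecular identifiers (UMIs). A total of 101 barcode sequences occurred in both. After filtering, 16373 sham and 21777 injury nuclei remained, with medians of 7190 and 6810 UMIs. Clusters were named from marker genes, so each class name stands for nuclei with that marker pattern. Glutamatergic neurons numbered 11813 sham and 12578 injury nuclei, GABAergic neurons 1942 and 3137, oligodendrocytes 1022 and 2360, astrocytes 209 and 512, oligodendrocyte precursors 109 and 160, and microglia 32 and 167. In glutamatergic neurons the thalamic relay markers summed to 6878 CPM in sham and 6615 CPM in injury, and the markers of cortex and hippocampus to 32.5 CPM in both. The relay markers also summed to 5481 and 6135 CPM in astrocytes, so they do not single out this class, and a class sum can hide clusters that differ. A further 9 clusters with 7.61% of sham and 13.1% of injury nuclei entered no class. Of these, 3 clusters with 4 sham and 941 injury nuclei were neurons found almost only in the injury library. In 2 of them, with 282 and 218 injury nuclei and none from sham, markers of cortex and hippocampus summed to 438 and 286 CPM. Those of thalamic relay summed to 988 and 1617 CPM, so these clusters differed from the sums of the kept nuclei in both marker sets. With all held-out glutamatergic clusters included, the markers of cortex and hippocampus summed to 33.6 CPM in sham and 47.7 CPM in injury, and the log2 ratio of summed member levels, given for the class further on, was -0.091.

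Member UMIs were counted in every class, although free RNA and doublets can add UMIs to nuclei of another type. The sum of members was 1158 UMIs for every 1000000 UMIs of the class (counts scaled in this way are CPM) in sham glutamatergic neurons (interval 1152 to 1165) and 1359 CPM in sham GABAergic neurons (1340 to 1379). The sum was 1355 CPM in sham oligodendrocytes (1303 to 1409) and 1521 CPM in sham astrocytes (1409 to 1638). Sham oligodendrocyte precursors reached 1211 CPM (1093 to 1339) and sham microglia 1230 CPM (988 to 1513). Glutamatergic neurons thus lay below GABAergic neurons and oligodendrocytes, whose intervals overlapped, and astrocytes lay highest, their interval starting just above that of oligodendrocytes. The wide interval of microglia overlapped all the others. This order held for the sham library, and in the injury library the interval of astrocytes (1321 CPM, 1263 to 1382) overlapped that of GABAergic neurons (1295 CPM, 1281 to 1310), and oligodendrocytes (1191 CPM, 1160 to 1223) lay below both. Per nucleus, glutamatergic neurons held 10.4 member UMIs in sham and 10.2 in injury, but this was 2.50 and 2.34 in oligodendrocytes, so depth was far greater in neurons. All 78 members reached the minimum of 50 UMIs over both libraries in each neuron class, against 58 in oligodendrocytes, 14 in astrocytes and none in precursors and microglia.

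To describe how the nuclear transcripts of these genes differed between the libraries, the ratio of injury to sham CPM was taken for each class. In glutamatergic neurons, member UMIs added up to 123221 (sham) and 128031 (injury), which is 1158 and 1093 CPM. The log2 ratio of the sums was -0.084 (interval -0.095 to -0.073), so the injury library held slightly less member RNA per UMI. The median member lay at -0.11 (quartiles -0.26 and 0.022), against 0.011 for the 19470 genes measured in this class. Below 0 lay 52 members and above 0 lay 26. A log2 ratio of -0.25 or less was found for 21 members, where 12% of all genes were that low, and a ratio of 0.25 or more for none, where 15% of all genes were that high. Counting intervals lay wholly below 0 for 34 members, wholly above 0 for 10, and included 0 for 34. Of all genes measured, 23.5% had an interval wholly below 0 and 25.4% one wholly above, and among genes of like level and length, defined next, these shares were 32.7% and 22.3%. In these nuclei the 7 oligodendrocyte markers were all higher in injury, with summed levels of 66.2 CPM in sham and 121 CPM in injury, and all 8 medial habenula markers were higher, with 575 and 770 CPM. All 6 markers of reticular thalamus (28.8 and 40.3 CPM) and all 4 GABAergic markers (26.7 and 32.6 CPM) were higher too. With clusters weighted by their sham shares, the ratio of the member sums was -0.093 and the member median -0.11. Without called doublets these values were -0.093 and -0.11. The part of these markers in the result was not tested.

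**Figure D1:**
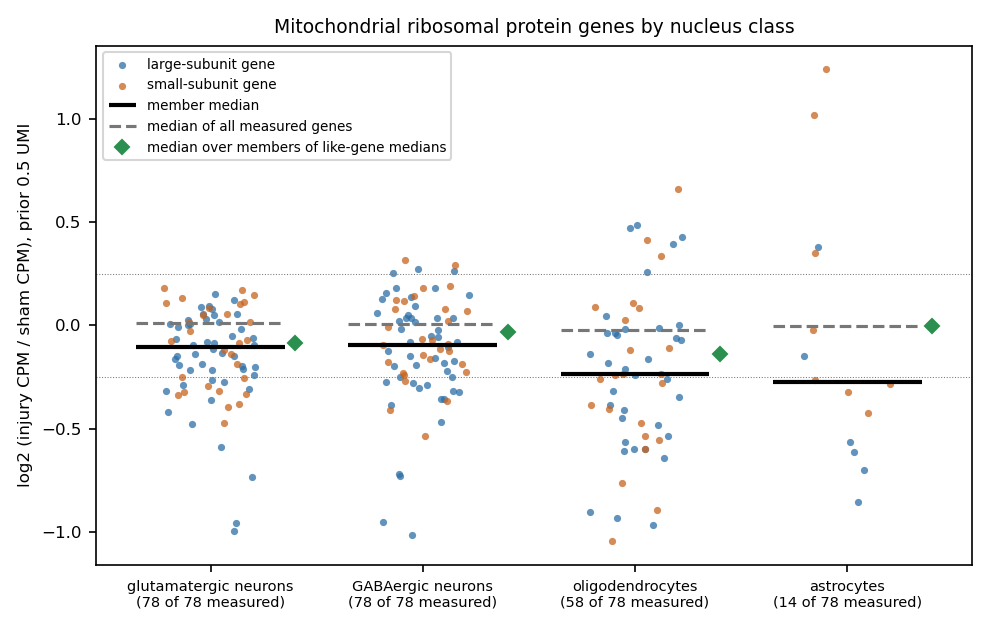
Log2 ratio of injury to sham CPM (y axis, prior of 0.5 UMI) of each member measured in 4 classes of nuclei (x axis), with 1 point per gene, blue for large-subunit and orange for small-subunit genes. Black bars are member medians, dashed bars medians of all measured genes, green diamonds the median over members of their like-gene medians, and dotted lines mark 0.25 in each direction; the member median lies below the all-gene median in each class, by the most in astrocytes, where 14 members were measured.

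Members were then set against genes of like level and length. For each member, like genes were all other measured genes within 0.5 log2 units of its mean CPM and within 0.5 log2 units of its span, the distance from gene start to end with introns. In glutamatergic neurons 77 members had at least 10 such genes, with a median of 401 each. The median of the like-gene medians was -0.086, close to that of the members themselves, and the median difference of a member from its like genes was -0.0089. Below their like genes lay 40 of the 77. Pooled over members and each counted once, the like genes numbered 8515. Of these, 12.8% had a log2 ratio of -0.25 or less and 4.8% had one of 0.25 or more. The pool was not weighted to the spans of the members, so these shares are not matched in length. All other shares of like genes, above and below, were taken in this way. With summed exon length in place of span the median difference was -0.063, and with protein-coding genes only it was 0.0078, so the sign of this small difference rested on how like genes were chosen.

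Short genes in general had lower ratios in the injury library. Over all measured genes of glutamatergic neurons, the median log2 ratio was -0.14 for the 1343 genes spanning 2 to 4 kb, -0.084 for the 2349 genes of 4 to 8 kb, -0.017 for the 3334 genes of 8 to 16 kb and 0.042 for the 3304 genes of 32 to 64 kb. Members are short, with a median span of 7.90 kb and a range from 0.789 to 122 kb, against a median of 22.03 kb for the genes measured in this class. The 10 members of 2 to 4 kb had a median of -0.26, the 26 of 4 to 8 kb one of -0.15, the 23 of 8 to 16 kb one of -0.064 and the 4 of 32 to 64 kb one of 0.070. From 2 kb on, members thus followed the same course along gene length, lying lower than other genes from 2 to 16 kb and slightly higher from 16 kb on. The 3 members under 1 kb departed most, with a median of -0.73 against -0.14 for the 242 other genes of that span. The 1 member of 1 to 2 kb lay at -0.0098, against -0.11 for the other genes. Of the 39 members below the median span, 34 lay below 0 and 18 reached -0.25, where 29.6% of the other genes under that span did. Of the 39 at or above it, 18 lay below 0 and 3 reached -0.25, where 6.58% of the other genes of such span did, close to the share of these members. Against their like genes, the shorter members had a median of -0.048 and the longer ones 0.023. By level, members under their median CPM had a median of -0.050 and the others 0.041. The small median difference over all members thus joined sets of opposite sign.

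**Figure D2:**
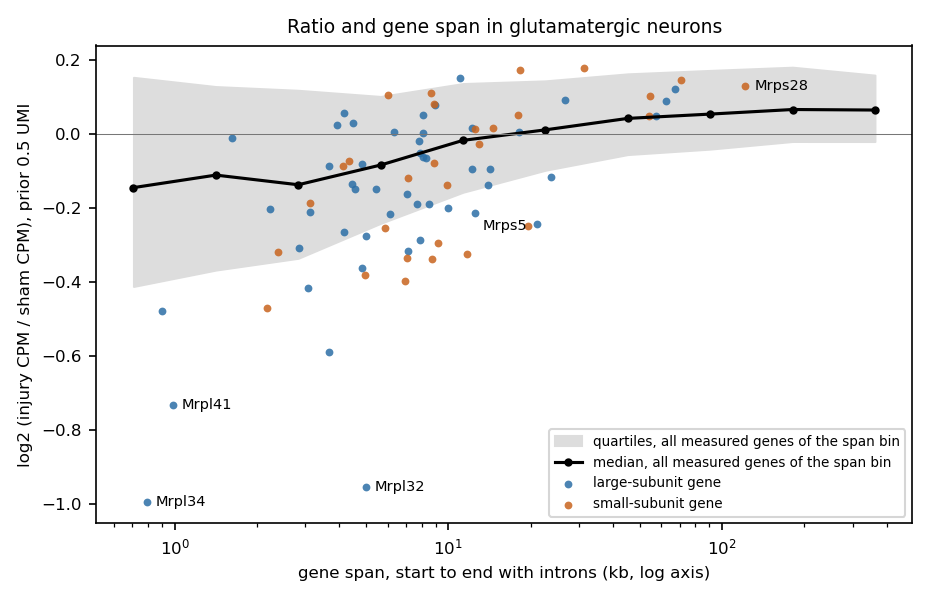
Log2 ratio of injury to sham CPM (y axis, prior of 0.5 UMI) against gene span in kb (x axis, log scale) in glutamatergic neurons. The black line and grey band give the median and quartiles of all measured genes per span bin, and points are the 78 members, of which those under 7.90 kb lie mostly below 0 and those above 32 kb lie above 0.

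Genes named for either subunit shared this shift. Large-subunit genes had a median of -0.13, with 12 of 49 at -0.25 or less, and small-subunit genes a median of -0.078, with 9 of 29. Against their like genes the medians were -0.014 and -0.0089. Without strand or intron settings stated for the counting, reads of overlapping genes cannot be told apart. A total of 42 members overlap another gene, 13 of them on the same strand. The 36 members that overlap none had a lower median, -0.19, than the 42 that do, -0.045. Against their like genes these medians were closer, at -0.034 and 0.019.

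Among large-subunit genes, 5 had the lowest ratios of all members in glutamatergic neurons. Mrpl34 is a gene of 789 bases on chromosome 8 (71464959 to 71465747, plus strand, GRCm38) and encodes one of the smallest proteins of the subunit. It had 317 UMIs or 2.98 CPM in sham and 175 UMIs or 1.49 CPM in injury, a log2 ratio of -0.996 (interval -1.27 to -0.73). The Poisson intervals of the levels, 2.66 to 3.33 and 1.28 to 1.73 CPM, did not overlap, with injury the lower. Its like genes had a median of -0.17. Mrpl32 (chromosome 13, 14608184 to 14613165, minus strand) encodes a protein that the m-AAA protease trims before it joins the large subunit. Its 763 sham and 433 injury UMIs gave 7.17 and 3.70 CPM, a log2 ratio of -0.96 (-1.13 to -0.78), against -0.14 for its like genes.

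Mrpl41 (chromosome 2, 24974117 to 24975098, minus strand) encodes a large-subunit protein also known to bind the apoptosis regulator BCL2. It was the best counted of these genes, with 3069 UMIs or 28.8 CPM in sham and 2035 UMIs or 17.4 CPM in injury, a log2 ratio of -0.73 (-0.81 to -0.65). Only 4 genes were of like level and span, too few for a comparison. Mrpl36, which carries a small zinc-binding protein, had 3.26 and 2.17 CPM (-0.59, -0.83 to -0.35) and overlaps Ndufs6, a gene of respiratory complex I, on the other strand. Mrpl53 had 11.6 and 8.29 CPM (-0.48, -0.60 to -0.36) and overlaps other annotated genes on both strands. The last large-subunit gene among the 8 lowest members, Mrpl57, had 4.66 and 3.49 CPM (-0.42, -0.61 to -0.23). All 6 lay below the median of their like genes where one could be formed. Since they were picked for the lowest ratios, this follows from the choice and is no further result.

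The promoter sequences of some members at the extremes are shown to give the regulatory context of genes that differed most. RefSeq promoters (GRCm38.p6) were at hand for 69 of the 78 members, and the 250 bases before the start are used. Capitals mark the core motif of ETS factors, CCGGAAG, and the CCAAT box, CCAAT, on either strand, none of which overlap here. Mrpl34 (chr8:71464676-71464925, plus strand) and Mrpl41 (chr2:24975099-24975348, minus strand) are among the lowest members, and Mrps31 (chr8:22411090-22411339, plus strand) is the second highest. Mrps35, the highest, and Mrpl32, the second lowest, are named only.
Mrpl34: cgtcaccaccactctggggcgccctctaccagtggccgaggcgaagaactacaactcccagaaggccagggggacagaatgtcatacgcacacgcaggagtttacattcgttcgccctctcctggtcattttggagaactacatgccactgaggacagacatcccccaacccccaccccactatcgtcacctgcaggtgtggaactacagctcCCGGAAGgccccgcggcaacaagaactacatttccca
Mrpl41: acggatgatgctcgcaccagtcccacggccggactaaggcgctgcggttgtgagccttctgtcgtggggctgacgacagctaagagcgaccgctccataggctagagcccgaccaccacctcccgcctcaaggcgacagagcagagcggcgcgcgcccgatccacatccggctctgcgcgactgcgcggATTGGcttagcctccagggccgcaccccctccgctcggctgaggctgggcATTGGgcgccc
Mrps31: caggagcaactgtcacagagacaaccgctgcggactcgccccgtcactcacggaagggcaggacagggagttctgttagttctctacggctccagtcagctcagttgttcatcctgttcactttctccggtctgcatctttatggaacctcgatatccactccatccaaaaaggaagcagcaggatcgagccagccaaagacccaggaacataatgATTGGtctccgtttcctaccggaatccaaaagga
The Mrpl34 window holds 1 ETS core, the Mrpl41 window 2 CCAAT boxes and the Mrps31 window 1.

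Over the 69 members, 26.1% held an ETS core in these 250 bases, against 7.83% of the 27025 genes of the table. The motif of NRF1, a regulator of nuclear genes for mitochondria, was searched as GCATGCGC and found in 11.6% of members and 2.56% of all genes. That of YY1, searched as AAGATGGCG, was found in 2.90% and 0.710%, and the CCAAT box in 36.2% and 37.5%. Member windows were richer in G and C, with a median of 58.4% against 52.4% over all windows. In glutamatergic neurons, the 18 members with an ETS core had a median log2 ratio of -0.039 and the 51 without one of -0.12, but 7 of the 18 and 13 of the 51 were at -0.25 or less, so median and count pointed in opposite directions. The 25 members with a CCAAT box had a median of -0.19 and the 44 without one of -0.090, with 10 at -0.25 or less in each set. Below 0 lay 14 of the 25 and 32 of the 44, so this count pointed the other way from the medians.

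Small-subunit genes filled the other places among the lowest 8. Mrps12, the counterpart of a bacterial protein of the decoding centre, had 889 UMIs or 8.35 CPM in sham and 706 UMIs or 6.02 CPM in injury, a log2 ratio of -0.47 (interval -0.62 to -0.33). Mrps14 had 12.1 and 9.18 CPM (-0.40, -0.51 to -0.28). Mrps5, the member with the most UMIs and the counterpart of a bacterial protein tied to reading accuracy, had 7810 UMIs or 73.4 CPM in sham and 7241 UMIs or 61.8 CPM in injury, a log2 ratio of -0.25 (-0.29 to -0.20). All 3 were lower in injury beyond counting error, and the difference of Mrps5 from its like genes was -0.20 at a span of 19608 bases.

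**Figure D3:**
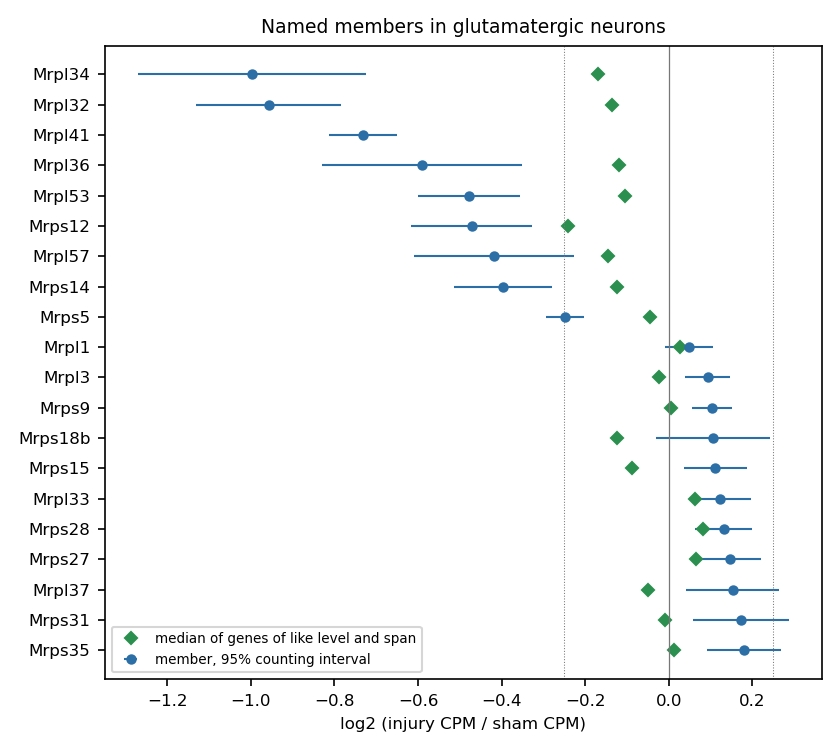
Log2 ratio of injury to sham CPM (x axis) of the members named in glutamatergic neurons (y axis), as points with 95% counting intervals, beside the median of their genes of like level and span as green diamonds. From Mrpl34 down to Mrps5 the intervals lie below 0, and the members above 0 reach at most 0.18, the value of Mrps35.

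The members with the highest ratios differed by far less. Mrps35, a subunit with no bacterial counterpart, had 1882 UMIs or 17.7 CPM in sham and 2348 UMIs or 20.04 CPM in injury, a log2 ratio of 0.18 (interval 0.092 to 0.27). Mrps31 had 10.4 and 11.7 CPM (0.17, 0.057 to 0.29), and Mrpl37 had 11.3 and 12.6 CPM (0.15, 0.042 to 0.26). Each was higher in injury beyond counting error, but none reached 0.25. Mrps27, Mrps28, Mrpl33 and Mrps15 followed at 0.15, 0.13, 0.12 and 0.11, while the interval of Mrps18b at 0.11 included 0 (-0.032 to 0.24). Of the 5 best counted members, which include Mrps5 and Mrps28, Mrps9 lay at 0.10 (0.056 to 0.15), Mrpl3 at 0.093 (0.039 to 0.15) and Mrpl1 at 0.049 (-0.0080 to 0.11). The other 58 members ranged from -0.38 to 0.090.

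The lowest members were low across neuron clusters and not in a single one. Of the 17 clusters in the neuron classes, 16 had at least 20 UMIs of Mrpl41, all 16 ratios were below 0 (median -0.67, range -1.37 to -0.28), and 12 intervals lay wholly below 0. Mrpl34 was below 0 in all 11 clusters that counted it enough (range -1.52 to -0.64), with 7 intervals wholly below 0. Mrpl32 was below 0 in 15 of 16 (range -1.75 to 0.36), with 13 such intervals. Mrpl53, Mrps12 and Mrps14 were below 0 in 16 of 16, but with only 7, 3 and 3 such intervals. Mrpl36 was below 0 in 14 of 14 and Mrpl57 in 14 of 15, with 4 such intervals each. Mrps5 was below 0 in 14 of 17, with 12 intervals below 0 and 1 above. Since the clusters add up to the classes from which these genes were picked and come from the same 2 libraries, this describes the spread among clusters and does not repeat the comparison.

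Summed over all members, neuron clusters differed in size of the shift. Ratios were taken for 18 clusters, 1 of which, cluster 21, was held out of its class because its leading genes include a marker of endothelial cells. Levels in sham ranged from 1066 to 1393 CPM. The log2 ratio was below 0 in 17 of 18 clusters and its interval wholly below 0 in 12. It was lowest in cluster 13, led by Adgrg6 and Egflam, with 1094 CPM in sham and 944 CPM in injury (-0.21, interval -0.27 to -0.16), and in cluster 11, led by Crybg1 and Adamts9, with 1149 and 997 CPM (-0.20, -0.25 to -0.16). At CPM scaling the highest was cluster 9, led by Ptprq and Kcnh8, with 1278 and 1294 CPM (0.018, -0.031 to 0.067). Intervals of clusters 11 and 13 did not overlap that of cluster 9. The medial habenula-like cluster lay at -0.055 (-0.11 to 0.0035), and the reticular thalamus-like GABAergic cluster at -0.070 (-0.12 to -0.019). Against genes of like level and span, cluster medians lay between -0.079 and 0.050 and were below 0 in 12 of 18. Like genes themselves had medians of -0.17, -0.16 and -0.0041 in clusters 13, 11 and 9. The member differences from them were -0.057, -0.059 and -0.072, so the order of these clusters in the sums did not hold against like genes.

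Cytosolic ribosomal protein genes were lower in the injury library in all 18 clusters, with log2 ratios of their sums from -0.63 to -0.26 and all 18 intervals below 0. Across the 18 clusters, the ratios of the mitochondrial and cytosolic sums had a Spearman rho of 0.64, those of the mitochondrial sums and the nuclear genes of the respiratory chain one of 0.72, and those of the mitochondrial sums and the genes of mitochondrial DNA one of 0.44. These are descriptions over clusters that share both libraries and their depth, and the ratios compared within a cluster share its totals.

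**Figure D4:**
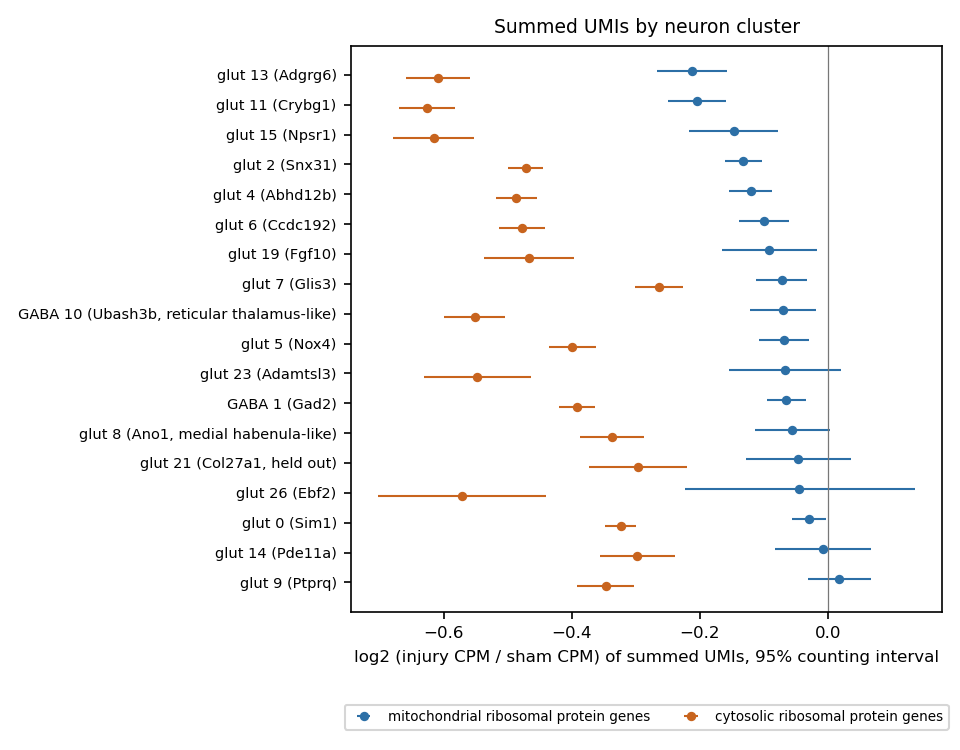
Log2 ratio of injury to sham CPM of summed UMIs (x axis) in 18 neuron clusters (y axis, named by class, number and first leading gene), with 95% counting intervals. Blue points are the 78 members and orange points the cytosolic ribosomal protein genes, and in each cluster the orange point lies to the left of the blue one.

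In GABAergic neurons, members summed to 18944 UMIs or 1359 CPM in sham and 29431 UMIs or 1295 CPM in injury, a log2 ratio of -0.069 (interval -0.096 to -0.043). The median member lay at -0.094 against 0.0054 for the 15292 genes measured and -0.032 for like genes, and the median difference from like genes was -0.040. With the held-out GABAergic cluster of 4 sham and 441 injury nuclei included, the ratio of the sums was -0.11 and the median -0.15. A ratio of -0.25 or less was found for 18 members, where 12.7% of all genes and 14.2% of like genes were that low. One of 0.25 or more was found for 5, where 16.2% of all genes and 11.8% of like genes were that high. Mrpl34 had 45 UMIs or 3.23 CPM in sham and 36 UMIs or 1.58 CPM in injury (-1.03, -1.70 to -0.36). Mrpl32 had 9.40 and 4.84 CPM (-0.96, -1.34 to -0.58), and Mrpl36 had 3.37 and 2.02 CPM (-0.74, -1.35 to -0.12). These 3 were lower in injury beyond counting error. The highest, Mrps2 at 0.32 (-0.37 to 1.04), Mrps18b at 0.29 (-0.068 to 0.67) and Mrpl49 at 0.28 (-0.31 to 0.88), were not. All 7 oligodendrocyte markers were higher in injury here too, with 101 and 153 CPM in all, and their part was not tested.

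In oligodendrocytes, the myelin-forming cells, members summed to 2559 UMIs or 1355 CPM in sham and 5522 UMIs or 1191 CPM in injury, a log2 ratio of -0.19 (interval -0.25 to -0.12). The median of the 58 measured members was -0.24, against -0.022 for all 9947 genes measured and -0.14 for like genes, with a median difference of -0.075. A ratio of -0.25 or less was found for 27 of the 58, where 23.2% of all genes and 27.7% of like genes were that low. One of 0.25 or more was found for 8, where 19.3% of all genes and 17.8% of like genes were that high. Mrps36, named as a ribosomal protein but since found in the 2-oxoglutarate dehydrogenase complex, had 23 UMIs or 12.2 CPM in sham and 27 UMIs or 5.82 CPM in injury (-1.06, -1.92 to -0.20). Mrps36 has annotated pseudogenes that are not among the gene rows, so its counts are less certain. Mrpl20 had 25.4 and 12.9 CPM (-0.97, -1.55 to -0.40). Mrpl28 had 22 UMIs or 11.6 CPM in sham and 28 UMIs or 6.04 CPM in injury (-0.95, -1.81 to -0.073). Like Mrps36, it was at the minimum and was measured only through its higher sham level. Mrpl33 had 28.6 and 40.1 CPM (0.49, 0.044 to 0.95), so it was higher in injury beyond counting error. Mrps18b at 0.67 (-0.31 to 1.78) and Mrpl13 at 0.48 (-0.28 to 1.30) were not. Mrps18b, with 11 sham and 43 injury UMIs, was near the minimum and was measured only through its higher injury level. The median share of mitochondrial UMIs per nucleus was 0.0595% in sham and 0.0971% in injury oligodendrocytes. Astrocyte markers in oligodendrocytes summed to 170.5 CPM in sham and 242.8 CPM in injury (7 of 8 higher), GABAergic markers to 119.7 and 184.2 CPM (2 of 4 higher) and neuronal markers to 1673 and 2020 CPM (2 of 5 higher), and their part was not tested. With nuclei above 0.02% mitochondrial UMIs left out, 13 members were measured, their median was -0.042, and the ratio of the sums was -0.18.

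In astrocytes, which supply neurons with metabolites and clear their transmitters, members summed to 690 UMIs or 1521 CPM in sham and 1913 UMIs or 1321 CPM in injury, a log2 ratio of -0.20 (interval -0.33 to -0.075). Only 14 members were measured, and their median was -0.27 against -0.0014 for all 5938 genes measured. A ratio of -0.25 or less was found for 8 of the 14, where 24.9% of all genes and 28.4% of like genes were that low. One of 0.25 or more was found for 4, where 27.1% of all genes and 29.6% of like genes were that high. Mrpl1, which forms the stalk that guides transfer RNAs out, had 28 UMIs or 61.7 CPM in sham and 49 UMIs or 33.8 CPM in injury (-0.87, -1.57 to -0.14). Mrpl42 at -0.71 (-1.55 to 0.17) and Mrpl18 at -0.62 (-1.31 to 0.098) had intervals that included 0. Mrps6, a protein of the small-subunit platform, went the other way, with 15 UMIs or 33.1 CPM in sham and 114 UMIs or 78.7 CPM in injury (1.25, 0.47 to 2.14). Mrps6 shares its strand and part of its span with Slc5a3, a myo-inositol transporter gene, which had 14 UMIs or 30.9 CPM in sham and 71 UMIs or 49.04 CPM in injury (0.67, -0.17 to 1.61), so reads of the pair may be mixed. Mrps6 lay at 0.050 in glutamatergic neurons (-0.043 to 0.14) and at 0.089 in oligodendrocytes (-0.40 to 0.60). Mrps25 at 1.04 (-0.11 to 2.43) and Mrpl3 at 0.39 (-0.54 to 1.43) were within counting error. Markers of oligodendrocyte precursors in astrocytes summed to 94.8 CPM in sham and 257 CPM in injury (5 of 6 higher, 1 at 0 in sham), and their part was not tested. The astrocyte result rests on few genes, and with a minimum of 20 UMIs the difference from like genes changed sign, from -0.14 to 0.11.

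Oligodendrocyte precursors and microglia gave sums only. Precursors had 383 member UMIs or 1211 CPM in sham and 542 or 1118 CPM in injury (-0.12, interval -0.31 to 0.077). Microglia had 89 and 442 member UMIs, or 1230 and 1307 CPM (0.088, -0.24 to 0.43). Neither difference was detectable at this depth, and without called doublets the microglial ratio was -0.10. Doublets were called for 50% of sham and 12.6% of injury microglia, and the 5 neuronal markers summed to 8525 CPM in sham and 6591 CPM in injury microglia, above the 9 microglial markers at 4145 and 4238 CPM, so this class holds much neuronal RNA.

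The genes that work with the mitochondrial ribosome are given next, in glutamatergic neurons, where low and high stand for ratios of -0.25 or less and of 0.25 or more, found for 12% and 15% of all genes measured. Subunits with other names had a median of -0.19 over 5 genes, although their summed UMIs had a ratio of 0.034 (interval -0.0039 to 0.073). Of these, Aurkaip1 had 4.33 and 3.46 CPM in sham and injury (-0.32, -0.52 to -0.13), Gadd45gip1 4.46 and 3.64 CPM (-0.29, -0.48 to -0.10) and Chchd1 7.51 and 6.56 CPM (-0.19, -0.34 to -0.050). Dap3, a GTP-binding protein of the small subunit, had 31.4 and 34.4 CPM (0.13, 0.066 to 0.20), and Ptcd3, which binds RNA, 49.7 and 51.6 CPM (0.056, 0.0026 to 0.11). So 3 of the 5 were lower and 2 higher beyond counting error. In GABAergic neurons Dap3 again lay above 0 (0.25, 0.093 to 0.40) and Aurkaip1 below (-0.52, -0.99 to -0.040).

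Among the factors that run translation on this ribosome, translation factors had a median of 0.016 over 11 genes with 1 low, and their summed UMIs a ratio of -0.025 (interval -0.047 to -0.0028). The tRNA synthetases, which load transfer RNAs with amino acids, had a median of 0.078 over 17 genes with 2 low and 2 high, and their sum was higher in injury beyond counting error, at 577 and 639 CPM (0.15, 0.13 to 0.16). Their sums were also higher in GABAergic neurons (0.13, 0.095 to 0.17) and in oligodendrocytes (0.28, 0.18 to 0.38). Genes for assembly and rRNA modification had a median of -0.025 over 24 with none past either limit, with a ratio of the sums of 0.0071 (-0.012 to 0.027). Genes of mitochondrial transcription and RNA had a median of -0.14 over 9 with 2 low, but a ratio of the sums of 0.0089 (-0.019 to 0.037). Import genes, whose products carry ribosomal proteins across both membranes, had a median of -0.21 over 24 with 10 low and none high, and a smaller ratio of the sums, -0.11 (-0.12 to -0.087).

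The lists of structural genes lay lower than the members. Nuclear genes of the respiratory chain had a median of -0.27 over 81, with 45 low and 1 high, and cytosolic ribosomal protein genes one of -0.42 over 79, with 67 low and none high. Their summed UMIs had ratios of -0.18 (-0.19 to -0.17) and -0.42 (-0.43 to -0.41). Against genes of like level and span the medians were -0.16 and -0.21, where members were at -0.0089. Import genes were at -0.16 on this measure too, genes of mitochondrial transcription and RNA at -0.077 and tRNA synthetases at 0.046. The genes encoded by mitochondrial DNA, which the ribosome translates, had a median of 0.32 over 13 genes, with 8 high and 2 low, and summed to 200 CPM in sham and 209 CPM in injury (0.064, 0.037 to 0.090). Their RNA is made outside the nucleus, so in sorted nuclei it is a residue. In GABAergic neurons the medians were -0.27 for the respiratory chain, -0.45 for the cytosolic ribosome, -0.16 for import and 0.18 for mitochondrial DNA, beside -0.094 for the members. In oligodendrocytes they were -0.35, -0.45, -0.26 and 0.75, beside -0.24. Astrocytes went the other way for mitochondrial DNA, with a median of -0.50 over the 8 genes measured, 6 low and none high, and a ratio of the sums of -0.52 (-0.70 to -0.34).

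**Figure D5:**
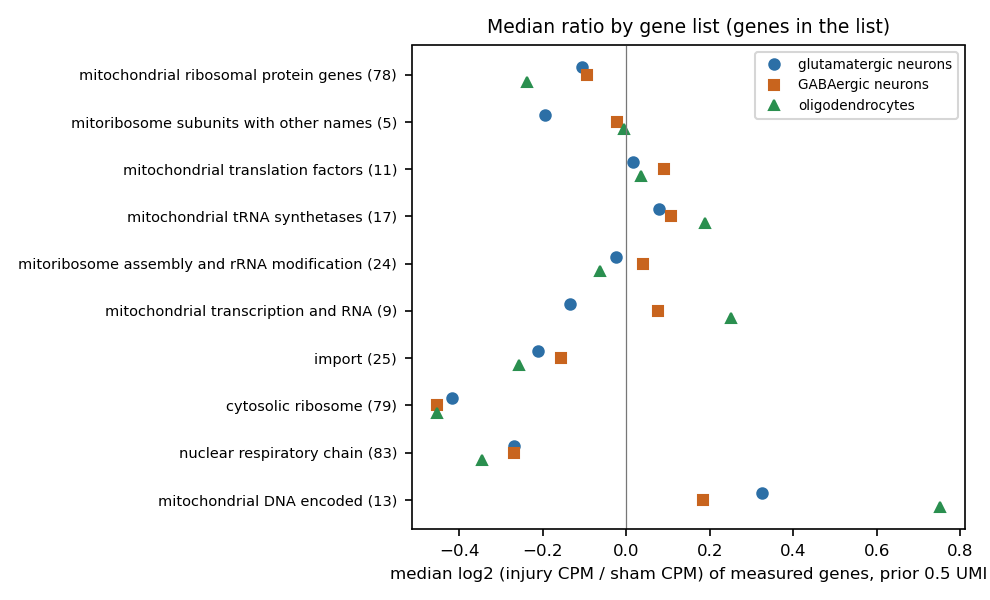
Median log2 ratio of injury to sham CPM (x axis, prior of 0.5 UMI) of the measured genes of 10 lists (y axis, with the number of genes in each list) in glutamatergic neurons, GABAergic neurons and oligodendrocytes. Cytosolic ribosomal protein genes have the lowest medians in all 3 classes and mitochondrial DNA the highest, with the members between.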

How the data were processed

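Nuclei were mixed by the authors in equal numbers per mouse, sorted by propidium iodide signal and made into 3′ v3.1 droplet libraries. Per the labels, reads were processed with bcl2fastq, Cell Ranger 6.0.2 against GRCm38 and Seurat 4.0. The 2 deposited tables hold raw UMI counts per gene and barcode, whole numbers with no normalization. Annotation release, strand and intron settings are not given in the sources used here. Symbols, spans and overlaps come from GENCODE M21 on GRCm38.

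The filter of the study was applied (at most 2% mitochondrial UMIs, 200 to 7500 genes). Doublets were kept. For an alternative, the nuclei with the highest Scrublet scores were called doublets at 0.8% per 1000 barcodes (scanpy 1.11.5), that is 13.3% (sham) and 17.8% (injury). Seurat 5.3.0 under R 4.3.3 joined the libraries by anchors over 1998 variable genes, with members and listed genes left out, and nuclei were clustered on 30 components at a resolution of 0.5. Clusters were named from marker lists and their 10 leading genes. Thresholds for naming, among them a pseudocount of 5 CPM for leading genes, were set after the data were seen, and names rebuilt here may differ from those of the study. Clusters with over 50% doublets, under 50 nuclei in a library, or leading genes against their name entered no class.

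UMIs were summed per class and library and scaled to CPM. List medians use a prior of 0.5 UMI, single ratios none. Ratio intervals are exact binomial (Clopper-Pearson) and level intervals exact Poisson, at 95%. A gene entered a class with at least 50 UMIs over both libraries, and a cluster with 20. The log2 fold of 0.25 is the one in the study's methods. No test was possible with 1 library per group, and the mice of each pool cannot be separated. Ratios and intervals were tested on simulated data. Named members were the 8 lowest, 8 highest and 5 best counted in glutamatergic neurons (at least 200 UMIs), and the 3 lowest and 3 highest elsewhere. The promoters of Mrpl41 and Mrps31 were chosen after values were seen, and those of Mrpl32 and Mrps5 are not shown because their windows overlap annotated untranslated regions. Members, lists and rules were chosen with earlier results of these data known. Alternatives covered scaling with edgeR 4.0.16 factors or the median gene ratio, UMI minimums, prior, doublets, mitochondrial share, weighting, cluster shares, integration, resolution and the choice of like genes.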

Additional observations from a re-analysis of the deposited data

How the results depend on the processing

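No paired analysis was possible because there is only 1 library on each side, and for the same reason no replicate could be left out. In both neuron classes and in oligodendrocytes, the ratio of the summed members and the member median stayed below 0 under all alternatives run. The deepest class, glutamatergic neurons, moved little: with edgeR factors the sum was at -0.097 and the median at -0.12, with the median gene ratio -0.098 and -0.12, and with at most 0.02% mitochondrial UMIs (an alternative chosen after seeing the data, as was keeping all clusters of a class) -0.10 and -0.13.

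In both neuron classes the difference from like genes was small, and its sign depended on the choice of like genes. In glutamatergic neurons it was -0.030 without called doublets, -0.026 with equal weight per nucleus, -0.022 with all clusters, -0.028 with a window of 1.0, -0.063 with exon length and 0.0078 with protein-coding genes only. In GABAergic neurons it was -0.089 with exon length and 0.00019 with protein-coding genes only. In oligodendrocytes it stayed below 0 under all alternatives run. There it was -0.091 with a window of 1.0, -0.081 with exon length and -0.071 with protein-coding genes only. In astrocytes these choices gave -0.17, -0.18 and -0.14, but lower UMI minimums changed the sign.

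In GABAergic neurons, all clusters gave a sum of -0.11, a median of -0.15 and 1 member at 0.25 or more; the median gene ratio gave 3 such members, and equal weight a median of -0.067. In oligodendrocytes, 5 members reached 0.25 with at most 0.5% mitochondrial UMIs, and with at most 0.02% the median was -0.042, with 4 low and 5 high of 13 measured.

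Astrocytes were limited by depth. Low members numbered 5 with the median gene ratio. A minimum of 20 UMIs gave 22 low and 14 high of 47 members measured (29.5% and 29.6% of all genes) and a difference from like genes of 0.11; no minimum gave 41 and 24 of 78 (32.4% and 41.9% of all genes) and 0.0074. With at most 0.02% mitochondrial UMIs, 2 members were measured, with 0 low, 1 high, a median of 0.78 and a difference of 0.58. Equal weight gave a median of -0.13. The sum stayed below 0 under each alternative. In precursors, the sum was -0.44 with at most 0.02% mitochondrial UMIs. In microglia, edgeR factors and the median gene ratio shifted the scale by -0.17 and -0.22, which put the sum at 0.26 and 0.31, while it was below 0 without called doublets (-0.10) and with equal weight per nucleus (-0.017). The causes were not tested.

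The summed members, below 0 in 17 of 18 neuron clusters, were below 0 in 22 of 23 at a resolution of 1.0. With edgeR factors they were again below 0 in 17 of 18, but the highest ratio, 0.078, was that of cluster 26 and not of cluster 9. The median gene ratio gave 16 of 18. Of the values of single members under alternatives, 2 left their counting interval and 366 did not (Mrps28 to 0.059 and Mrpl20 to -0.17, both with at most 0.02% mitochondrial UMIs).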
